A study of Homo sapiens with 6 samples.

Results

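Expression of 10 genes of tumour necrosis factor (TNF) receptor signalling was measured in L1236, an established line grown from Hodgkin lymphoma, whose tumour cells descend from B cells. The 10 genes, of 18604 with a usable row, were 4 receptors without a death domain (TNFRSF8, CD40, TNFRSF9 and TNFRSF1B), 2 death domain receptors (TNFRSF1A and FAS), 3 TRAF adaptors (TRAF1, TRAF2 and TRAF3) and 1 ligand (CD70). They were chosen by name, as rows of the deposited gene-level table whose annotation names that symbol alone, and each had 1 such row. Cells with leukotriene D4 (LTD4), a cysteinyl leukotriene lipid mediator, received it at 100 nM in serum-free medium, with methanol as its solvent. Vehicle cells received 0.1% methanol in serum-free medium. The labels call the remaining cells non-treated and do not say whether their medium held serum. Each agent was measured after 8 h and after 1 h on 1 array, 6 arrays in all, so no group had a replicate. Nothing in the labels says that the arrays came from separate cultures.

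Receptors of the TNF family are trimeric surface proteins that pass a signal inward when a ligand of the TNF family binds. CD30, the product of TNFRSF8, is the surface marker by which Hodgkin cells are classically recognised, and CD30, CD40 and TNFR2 recruit TRAF proteins that lead to NF-kB, which is constitutively active in Hodgkin cells. TNFR1 (TNFRSF1A) and FAS carry a death domain and can also start apoptosis.

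The promoters of the members are shown first, because NF-kB and AP-1 are the factors that this pathway is best known to engage. RefSeq's promoter table, in build GRCh38.p14, held windows for 8 members, 12 windows in all because FAS and TRAF1 have 3 each. CD40 and CD70 had no entry. A window runs from 250 bases before to 50 after a start site. Each was searched on both strands for loose NF-kB letters (GGG, then any 5 bases, then CC), for a stricter form (GGG, any 2 bases, then TTTCC), whose matches are a subset of the first, and for the AP-1 letters TGANTCA. The loose NF-kB letters stood in 11 of 12 member windows, against 58.7% of all 35116 windows. Windows of the same gene are not independent, and some of those of FAS overlap. The strict form was added after the sequences had been seen. It stood in 2 of 12 windows, those of TNFRSF9 and TRAF3, against 1.91% of all windows. The AP-1 letters stood in 3 of 12, those of TNFRSF8, TNFRSF9 and 1 window of FAS, against 7.71%. A match describes letters and is not evidence of binding. The 250 bases before the start site are printed for TNFRSF9 (chr1:7940840-7941089, minus strand) and TRAF3 (chr14:102777199-102777448, plus strand). They are the members with the strict NF-kB letters, which are in capitals as are the AP-1 letters. For TNFRSF8 (chr1:12063292-12063321, plus strand) 30 bases around its AP-1 letters are printed, which lie at bases 2 to 8 after the start site.
TNFRSF9: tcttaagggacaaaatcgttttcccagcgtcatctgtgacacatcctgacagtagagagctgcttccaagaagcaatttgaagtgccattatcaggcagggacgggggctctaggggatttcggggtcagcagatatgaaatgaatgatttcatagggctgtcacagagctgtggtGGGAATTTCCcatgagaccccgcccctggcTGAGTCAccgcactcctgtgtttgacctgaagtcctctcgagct
TRAF3: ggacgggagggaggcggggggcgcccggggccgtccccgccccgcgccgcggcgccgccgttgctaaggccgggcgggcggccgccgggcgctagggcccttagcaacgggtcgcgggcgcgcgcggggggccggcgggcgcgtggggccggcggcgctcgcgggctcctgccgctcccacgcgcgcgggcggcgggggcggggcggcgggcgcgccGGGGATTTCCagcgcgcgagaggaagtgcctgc
TNFRSF8: tgtgccttttccTGAGTCAtctctgcacgt

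Deposited intensities are linear. All differences are of log2(intensity + 16), a scale on which changes of dim genes come out smaller than they are. The background limit was the 95th percentile of 45 antigenomic control probesets, designed to have no human target, and came to an intensity of 1263. A gene was tested when its highest array reached this limit. CD40, TNFRSF9 and FAS passed, each on all 6 arrays, and the other 7 members did not. CD70 came closest, with a highest value of 1258. All 10 lay above the antigenomic median of every array, which was 40.7 to 59.8. Tests for CD40, TNFRSF9 and FAS come from a fit over the 3584 genes that reached the limit. For the other 7 they come from the same fit over all 18604 genes, an alternative added after the values were seen.

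The median intensity of all probesets was 210 (LTD4), 223 (methanol) and 154 (untreated) at 8 h, and 217, 228 and 188 in the same order at 1 h. The untreated array of 8 h held the lowest value in 5 of 10 members, TNFRSF1A, FAS, TRAF1, TRAF2 and CD70, against 56.7% of all genes. Summed markers of T cells were also lowest there, at 160 against 434 on the LTD4 array of 8 h, with 0 of 3 measured T cell markers past the limit. The sums of monocyte and of epithelial and fibroblast markers were lowest on that array too, with 0 of 4 markers past the limit in each list. Of 8 Hodgkin cell markers 5 passed the limit, and their sum was lowest on the methanol array of 1 h, at 15223. On the untreated array of 8 h that sum was 16340. TNFRSF8 itself ranked at percentile 62.4 to 78.7 of all genes. TRAF1, another Hodgkin marker, ranked at percentile 46.4 to 52.9, near the middle. Of 5 measured B lineage markers 1, PAX5, passed. Their sum was lowest on the untreated array of 1 h, at 1887 against 1991 on that of 8 h. In an RNA extract of a whole culture, fewer cells with a transcript and less of it per cell cannot be told apart.

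**Figure D1:**
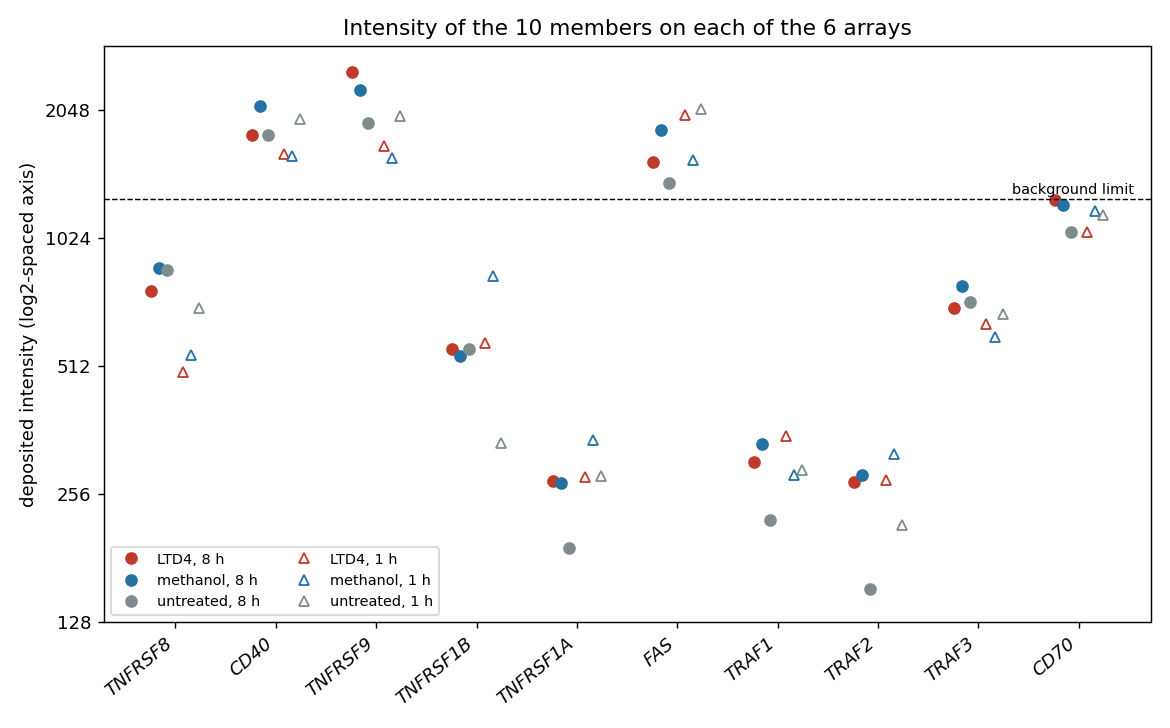
Deposited intensity (log2-spaced vertical axis) of each of the 10 members on each of the 6 arrays, filled circles for 8 h and open triangles for 1 h, with agents by colour. The dashed line is the background limit of 1263, which CD40, TNFRSF9 and FAS exceeded on all 6 arrays.

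TNFRSF8 encodes CD30. Its intensity at 8 h was 768 with LTD4, 872 with methanol and 860.0 without treatment, against 496, 542 and 702 in the same order at 1 h. All 3 arrays of 8 h thus lay above all 3 of 1 h. The differences of 8 h minus 1 h were 0.61 with LTD4, 0.67 with methanol and 0.29 without treatment. Over the agents the difference was 0.52 (SE 0.18, 95% interval 0.17 to 0.88), which did not pass (limma, adjusted p = 0.118 over all genes). Without either untreated array the estimate rests on the LTD4 and methanol arrays and came to 0.64 (limma, adjusted p = 0.0427). Of the members' fitted differences between times this was the greatest, while the greatest of a single pair was that of TNFRSF1B in untreated cells, at 0.71. At each time its LTD4 value was the lowest of the 3, by -0.18 against methanol and -0.16 against untreated at 8 h, and by -0.13 and -0.49 at 1 h.

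TNFRSF9 encodes 4-1BB, a costimulatory receptor. At 8 h it reached 2516 with LTD4, 2277 with methanol and 1907 without treatment, against 1684, 1577 and 1981 at 1 h. The arrays overlapped between times because the untreated pair differed by -0.05, while the LTD4 pair differed by 0.57 and the methanol pair by 0.53. After centring on all genes the untreated pair differed by 0.17. The fitted difference of 0.35 (SE 0.18, 95% interval -0.01 to 0.70) did not pass (limma, adjusted p = 0.625). Without either untreated array it was 0.55 (limma, adjusted p = 0.0408). LTD4 stood above methanol by 0.14 at 8 h and by 0.09 at 1 h, and above untreated by 0.40 at 8 h but at -0.23 at 1 h. The ligand of 4-1BB, TNFSF9, was at 773, 820.2 and 645 at the later time, against 1169, 887 and 878 at the earlier, in the same order of agents.

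CD40 encodes the B-cell receptor for the T-cell ligand CD40L. The 8 h values were 1783 with LTD4, 2086 with methanol and 1789 without treatment, against 1608, 1599 and 1953 at 1 h. Its log2 range of 0.38 over the 6 arrays was the smallest among the 3 tested members, and the times overlapped. The difference between times was 0.13 (95% interval -0.22 to 0.49, limma, adjusted p = 0.917). The row annotated to CD40 spans 185945 bases, although the RefSeq gene is 11545 bases long, and a row of CDH22 overlaps it on the opposite strand. Its value may therefore not stand for CD40 transcripts alone, which was not tested. CD40LG, the gene of CD40L, lay between 16.9 and 36.0 on the 6 arrays, below the antigenomic median of each array.

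TNFRSF1B encodes TNFR2, the TNF receptor without a death domain. At 8 h its intensity was 560.1 with LTD4, 542 with methanol and 562 without treatment, within 0.05 of each other on the log2 scale. At 1 h it was 579, 832 and 337, so the 1 h arrays held both its highest and its lowest value. Its log2 range of 1.26 over the 6 arrays was the widest of the members. Methanol lay 1.26 above untreated at 1 h and at -0.05 at 8 h. The fitted difference of methanol minus untreated was 0.61 (SE 0.22, 95% interval 0.17 to 1.04), which did not pass (limma, adjusted p = 0.0605). After centring on all genes it was 0.32 (SE 0.28, limma, adjusted p = 0.544). After cyclic loess it was 0.43 (SE 0.32, limma, adjusted p = 0.503). On the deposited values it was 1.12 without the untreated array of 8 h and 1.07 without the methanol array of 8 h. Without the methanol array of 1 h it was 0.14, and without the untreated array of 1 h 0.09. Each of these fits leaves 1 array of methanol or of untreated cells.

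TNFRSF1A encodes TNFR1. Intensities at 8 h were 275 with LTD4, 271 with methanol and 191 without treatment, against 281, 342 and 281 at 1 h. All 3 arrays of 8 h lay below all 3 of 1 h, by a fitted -0.29 (95% interval -0.64 to 0.06), which did not pass (limma, adjusted p = 0.487). It was 1 of 10 members in that order, against 6.35% of all genes. FAS, the death receptor CD95, reached 1543 with LTD4, 1835 with methanol and 1379 without treatment at 8 h, against 1994, 1559 and 2052 at 1 h. The times overlapped, because methanol was higher at 8 h by 0.23 while LTD4 differed by -0.37 and untreated by -0.57. After cyclic loess the methanol pair differed by -0.09. The fitted difference for FAS was -0.23 (95% interval -0.59 to 0.12, limma, adjusted p = 0.85). FASLG, its ligand, lay between 93.1 and 127.7 on the 6 arrays.

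TRAF1 encodes an adaptor without a RING domain that is itself an NF-kB target. TRAF1 at 8 h was at 305 with LTD4, 336 with methanol and 223 without treatment, against 350.1, 284 and 291 at 1 h. The times overlapped, with a fitted difference of -0.11 (95% interval -0.46 to 0.25, limma, adjusted p = 0.819). TRAF3 encodes the adaptor that holds the kinase NIK (MAP3K14) in check. Its intensity at 8 h was 701 with LTD4, 790.1 with methanol and 722 without treatment, against 641, 599.8 and 678 at 1 h. As with TNFRSF8, all 3 arrays of 8 h lay above all 3 of 1 h. The difference of 0.20 (95% interval -0.15 to 0.55) did not pass (limma, adjusted p = 0.647). On the deposited values TNFRSF8 and TRAF3 were 2 of 10 members with this order, against 5.03% of all genes. After centring on the tested genes TNFRSF8 kept the order and TRAF3 lost it. Relative to the array median, TRAF3 with LTD4 at 8 h (-1.363) then lay below methanol at 1 h (-1.357).

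TRAF2 encodes the RING adaptor that links TNF receptors to the cIAP ubiquitin ligases. Its intensity at 8 h was 274 with LTD4, 283 with methanol and 153 without treatment, against 276, 317 and 216 at 1 h. Both untreated arrays lay below the other 4. The untreated arrays also had the lowest medians of all probesets, and the share of all genes in this order was not counted. Methanol lay above untreated in 89.3% of all genes at 8 h and in 56.7% at 1 h. In the fit over all genes TRAF2 rose with methanol by 0.67 (SE 0.22, limma, adjusted p = 0.0332), higher at 2 of 2 times, and it was the 1 member of 10 called. In that fit 8.76% of all genes were called higher with methanol and 0.237% lower, and the median of all genes was 0.22. After each array was centred on the median of all genes 0 of 10 members were called, against 1.38% of all genes higher and 1.74% lower. TRAF2 then stood at 0.39 (limma, adjusted p = 0.193), and after cyclic loess at 0.36 (adjusted p = 0.224), so the call was lost. It was also lost when either LTD4 array was left out, at 0.67. Leaving out a methanol array gave 0.63 (that of 8 h) or 0.71 (that of 1 h), and leaving out the untreated array of 8 h gave 0.49, again with no call. The call was kept without the untreated array of 1 h, at 0.86 (limma, adjusted p = 0.00969). LTD4 against untreated gave 0.55 for TRAF2 (limma, adjusted p = 0.132), 0.74 without the untreated array of 1 h (limma, adjusted p = 0.037) and 0.37 without that of 8 h (limma, adjusted p = 0.555). It was 0.34 after centring, 0.30 after cyclic loess and 0.26 after quantile normalization, with no call. This shares the untreated arrays with the methanol comparison.

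**Figure D2:**
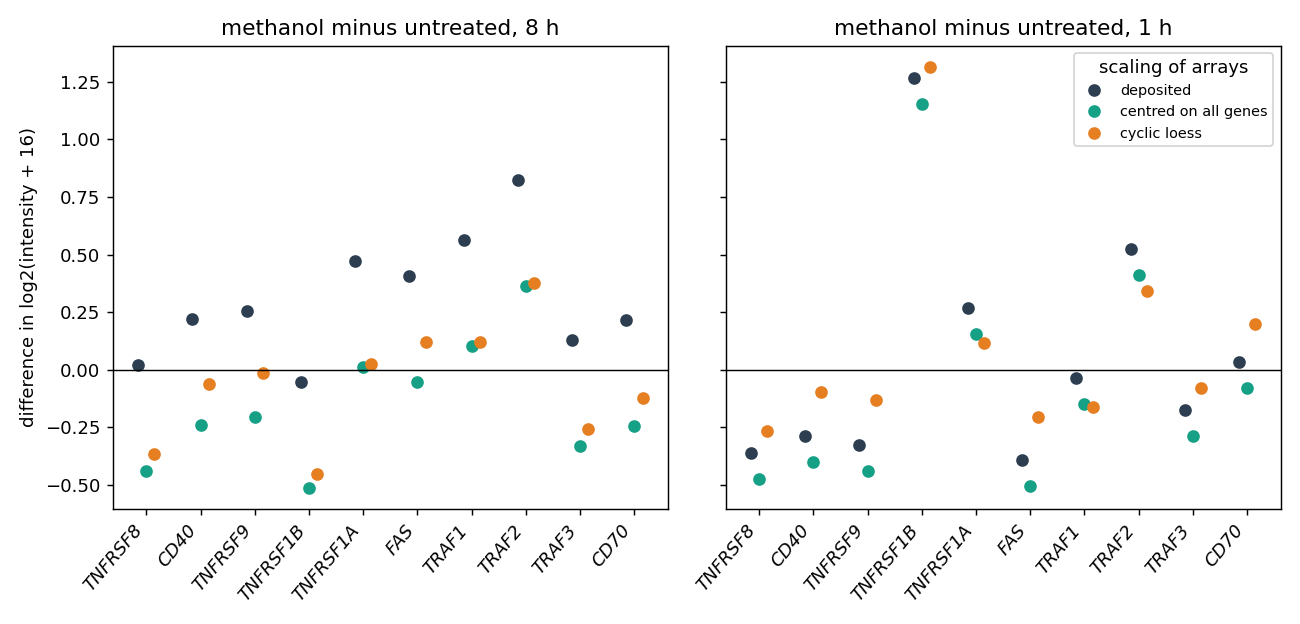
Methanol minus untreated at 8 h (left) and 1 h (right) for each member, as a difference of log2(intensity + 16) on the vertical axis, for the deposited values, after centring on all genes and after cyclic loess. TRAF2 lies above 0 in all 6 cases, TNFRSF1B stands at 1.26 at 1 h and -0.05 at 8 h as deposited, and at 8 h the members other than TRAF2 lie at 0.12 or below after either scaling.

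CD70 encodes the ligand of CD27 and was the least variable member, with a log2 range of 0.25. CD70 at 8 h was at 1258 with LTD4, 1226 with methanol and 1055 without treatment, against 1058, 1184 and 1158 at 1 h. The times overlapped, with a difference of 0.05 (95% interval -0.30 to 0.41, limma, adjusted p = 0.915). CD27 lay between 460.1 and 646.

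The first comparison asked what LTD4 changed relative to the vehicle and to untreated cells. With LTD4 at 8 h 0 of 10 members were at least 2-fold above both other arrays of that time and 0 below, where 0.0108% and 0.00538% of all genes were. At 1 h the counts were again 0 and 0, against 0.0538% and 0.0161% of all genes. At 1.5-fold they were still 0 at both times, against 0.124% higher and 0.0484% lower at 8 h and 0.328% and 0.145% at 1 h. LTD4 minus methanol at 8 h ranged over the members from -0.25 in FAS to 0.14 in TNFRSF9, with a median of -0.09 beside -0.08 over all genes. At 1 h it ranged from -0.51 in TNFRSF1B to 0.35 in FAS, with a median of -0.06 beside 0.01. FAS therefore lay below methanol at 8 h and above it at 1 h, where it differed from untreated by -0.04. TRAF1 with LTD4 was above both other arrays at 1 h, by 0.29 against methanol and 0.25 against untreated.

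Over both times LTD4 minus methanol gave 0 calls among the members in either fit. Of the 3584 tested genes 0.0% were called in each direction, with 13 at an unadjusted p below 0.05. Without the filter 0.00538% were higher and 0.0108% lower. The 95% intervals of all 10 members included 0 and lay between -0.66 and 0.55 (limma, adjusted p = 1 for each member). Differences within those bounds could not be resolved with these arrays. At an unadjusted p below 0.05 the members also numbered 0 in both fits. LTD4 minus untreated also gave 0 calls among the 3 tested members, 0 at an unadjusted p below 0.05, where limma called 2.32% of tested genes higher and 0.446% lower. Without the filter it gave 0 of 10 members, against 4.72% of all genes called higher and 0.226% lower. TRAF2 alone had an unadjusted p below 0.05 (limma), as did 3399 of all 18604 genes. After centring on all genes the members at an unadjusted p below 0.05 were instead TNFRSF8, at -0.54 (limma, adjusted p = 0.0977), and CD40, at -0.36 (limma, adjusted p = 0.262). TRAF2 was no longer among them. Of all 18604 genes 3441 had an unadjusted p below 0.05 after this centring (limma). In the centred fit over the tested genes CD40 stood at -0.19 (limma, adjusted p = 0.273). There 0 of the 3 tested members were at an unadjusted p below 0.05. TNFRSF1B stood at 0.38 on the deposited values. It was at 0.89 without the untreated array of 8 h (limma, adjusted p = 0.0287) and at -0.14 without that of 1 h (limma, adjusted p = 0.752), so its sign depended on which untreated array was left out.

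**Figure D3:**
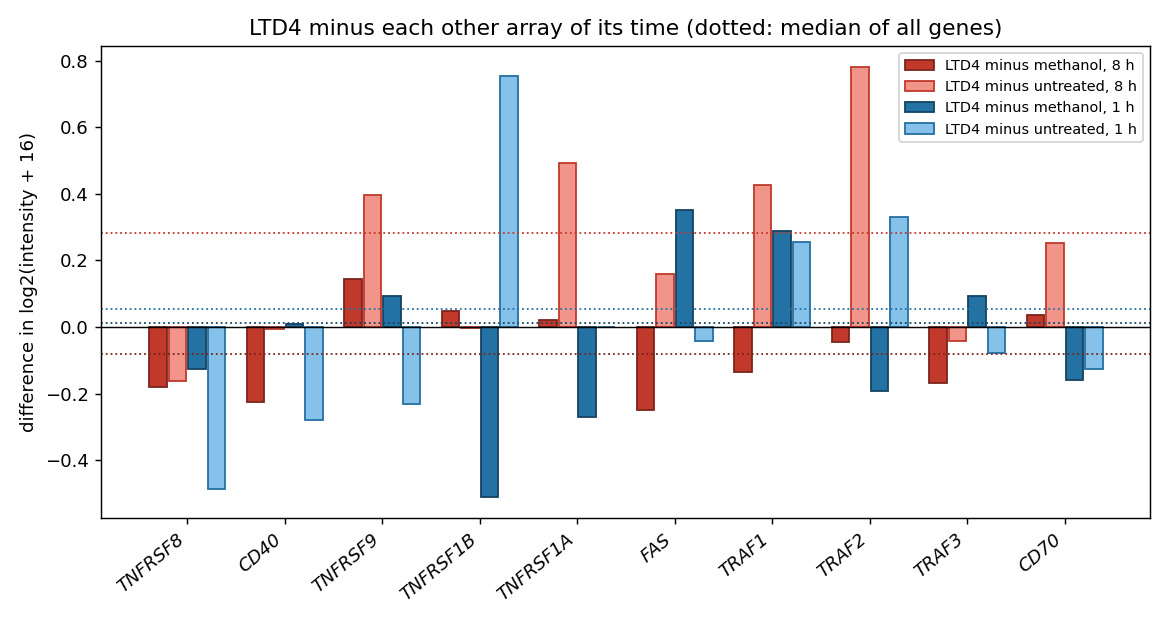
LTD4 minus methanol and LTD4 minus untreated at 8 h and at 1 h for each member, as differences of log2(intensity + 16), with dotted lines at the median of all genes. In 0 of 10 members did both bars of a time reach 1.5-fold on the same side of 0.

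The second comparison set methanol against untreated cells. At 8 h 0 of 10 members were 2-fold apart, where 3.76% of all genes were higher and 0.043% lower. At 1.5-fold TRAF2 was 1 of 10 higher, against 22.7% of all genes, and 0 were lower, against 0.269%. At 1 h TNFRSF1B was 1 of 10 at least 2-fold higher, against 1.82% of all genes, and 0 were lower, against 0.204%. At 1.5-fold it remained the 1 member higher at 1 h, against 10.4% of all genes, with 0 lower, against 3.61%. Over both times limma called 0 of the 3 tested members, with 0 at an unadjusted p below 0.05, where 1.9% of tested genes were called higher and 0.363% lower. CD40 differed by -0.03, TNFRSF9 by -0.04 and FAS by 0.01, and on the deposited values each of the 3 was higher at 8 h and lower at 1 h. After centring on all genes each was lower at both times, at 8 h by -0.24 in CD40, -0.21 in TNFRSF9 and -0.05 in FAS. After centring on the tested genes the 8 h values were -0.06 in CD40, -0.03 in TNFRSF9 and 0.13 in FAS. FAS at 8 h also stood above 0 after cyclic loess, at 0.12. The median of the 10 members at 8 h was 0.24 beside 0.36 over all genes, and at 1 h -0.10 beside 0.08.

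The third comparison asked what differed at 8 h relative to 1 h, with the agents as a term of the model. Of the 3 tested members limma called 0, with 0 at an unadjusted p below 0.05, where 0.949% of tested genes were called higher and 0.809% lower. After centring on the tested genes 0 were called, and 2 of 3 had an unadjusted p below 0.05, as did 701 of all 3584 tested genes. The 2 members were FAS at -0.32 (95% interval -0.55 to -0.09, limma, adjusted p = 0.119) and TNFRSF9 at 0.26 (95% interval 0.04 to 0.48, limma, adjusted p = 0.185). Of all 10 without the filter 0 were called, against 0.333% of all genes called higher and 1.39% lower. TNFRSF8 alone had an unadjusted p below 0.05 (limma), as did 2451 of all 18604 genes. TNFRSF8 and TRAF3 were higher at 8 h in 3 of 3 agents, against 11.0% of all genes, and TNFRSF1A and TRAF2 were lower in 3 of 3, against 24.1%. In TRAF2 the LTD4 pair differed by only -0.009, and by 0.017 after cyclic loess. At 1.5-fold TNFRSF8 was higher in the LTD4 pair, as were 1.15% of all genes, and in the methanol pair, as were 7.26%. TNFRSF1B was lower at 1.5-fold in the methanol pair, as were 6.34% of all genes, and higher in the untreated pair, as were 0.355%. In the untreated pair 0 of 10 members were lower at 1.5-fold, against 9.93% of all genes.

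**Figure D4:**
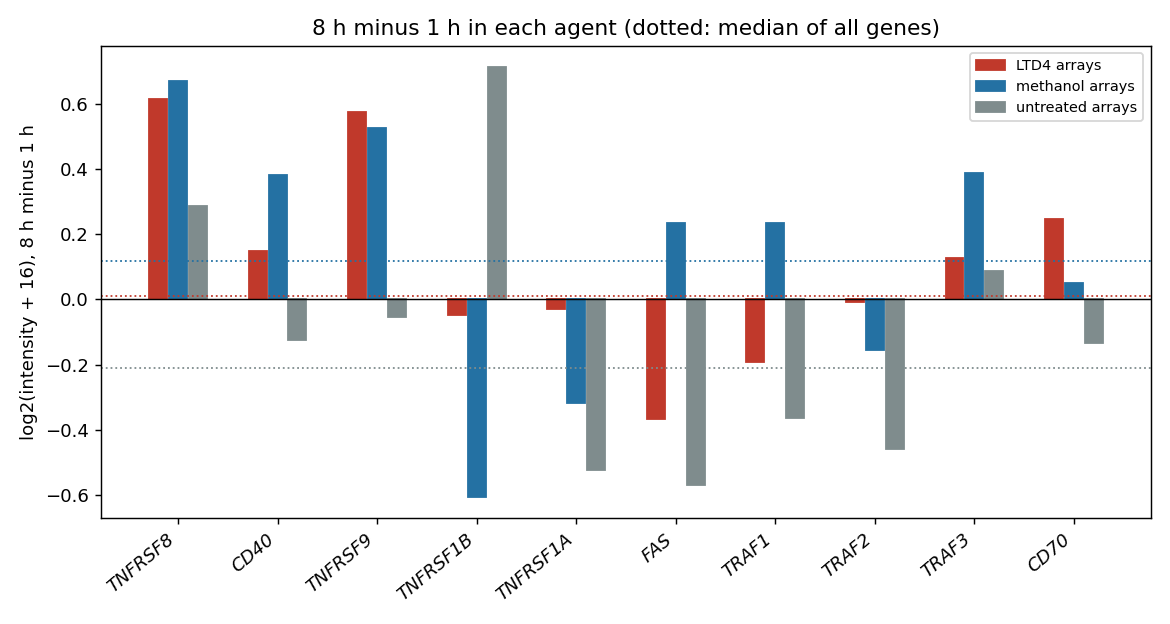
Differences of 8 h minus 1 h in log2(intensity + 16) for each member in the LTD4, methanol and untreated pairs of arrays, with dotted lines at the median of all genes for each pair. TNFRSF8 and TRAF3 are above 0 in all 3 pairs, and TNFRSF1B stands at -0.60 in the methanol and 0.71 in the untreated pair.

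**Figure D5:**
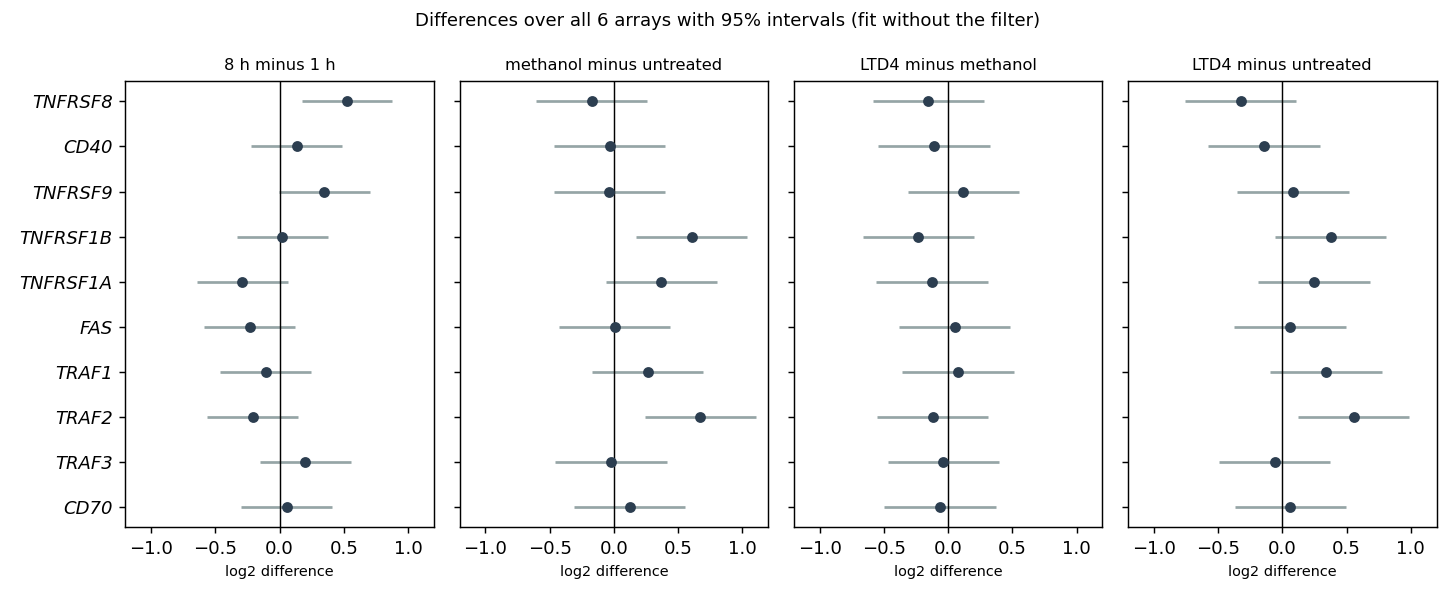
Fitted differences on the log2 scale with 95% intervals for each member in the 4 comparisons of the fit over all 18604 genes. Intervals that leave out 0 before adjustment belong to TNFRSF8 for time, TNFRSF1B and TRAF2 for methanol and TRAF2 for LTD4 minus untreated, and of these TRAF2 for methanol alone passed after adjustment. Of all 18604 genes 2451 (time), 4452 (methanol) and 3399 (LTD4 minus untreated) had an unadjusted p below 0.05 (limma).

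Among the genes of the wider pathway that passed the background limit, 1 call was made on the deposited values. TNF, a ligand of TNFR1 and TNFR2, reached 1296 (LTD4), 1396 (methanol) and 919 (untreated) at 8 h, against 2197, 1668 and 1636.5 at 1 h. It fell by 0.61 at 8 h (limma, adjusted p = 0.047), lower in 3 of 3 agents, the 1 call among 3 tested ligands. Centring made TNF a call for LTD4 minus untreated, at 0.41 (limma, adjusted p = 0.0453), where the deposited values gave 0.46 (limma, adjusted p = 0.375). In that centred comparison 249 of 3584 tested genes were called higher. The call of TNF for time was kept after centring at -0.70 (limma, adjusted p = 0.00449), among 96 tested genes called lower. It was lost whichever of the 6 arrays was left out, at -0.50 without an untreated array, -0.54 without an LTD4 array and -0.79 without a methanol array (limma, adjusted p of 0.0644, 1 and 0.0895). A mean-variance trend or robust fitting also ended it (limma, adjusted p = 0.362 and 0.163). LTB, a subunit of lymphotoxin, stood at -0.32 and LTA, the other subunit, at -0.01 in the same comparison. At 1 h TNF with LTD4 lay above methanol by 0.39 and above untreated by 0.42. Of 2 tested receptors outside the members, TNFRSF11A (RANK) and TNFRSF13C (the BAFF receptor), 0 were called in any of the 4 comparisons. Without the filter 4 of 21 receptors were higher with methanol and 0 lower, TNFRSF12A (the TWEAK receptor, 0.66), TNFRSF13B (TACI, 0.68), NGFR and EDA2R, and after centring 0 of 21. All genes called in that fit were 8.76% higher and 0.237% lower. There 2 of 13 ligands (TNFSF11 and TNFSF15) and 1 of 10 NF-kB genes (RELB) were also higher with methanol. For LTD4 minus untreated TNFRSF12A was higher by 0.74 (limma, adjusted p = 0.0232) and TNFSF10 was called higher too, against 4.72% of all genes. After centring 0 of these ligands, RELB or TNFRSF12A were called.

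Of 7 tested TRAF partners 0 were called in any comparison. BIRC3, the cIAP2 ubiquitin ligase recruited by TRAF2, differed by 0.37 between times, and TNFAIP3, the A20 inhibitor of NF-kB, by 0.22 for LTD4 minus methanol. For LTD4 minus methanol the deubiquitinase CYLD stood at 0.26 and TNIP2, a partner of A20, at -0.01. TNFAIP3 stood at 1506 with LTD4, 1623 with methanol and 1227 without treatment at 8 h, against 2215, 1506 and 1471 at 1 h. LTD4 minus methanol was thus -0.11 at 8 h and 0.55 at 1 h. Of 7 tested genes of receptor complexes and kinases 0 were called, and FAF1, TAB3, RBCK1 and CFLAR, those with the greatest fitted differences, reached at most -0.29, in FAF1 for LTD4 minus untreated. Of 4 tested NF-kB subunits and inhibitors 0 were called. NFKB1 stood at -0.41 for methanol minus untreated and -0.43 for LTD4 minus untreated, and NFKBIA at -0.43 between times. After centring NFKB1 was called lower for methanol minus untreated, at -0.45 (limma, adjusted p = 0.0459), and for LTD4 minus untreated, at -0.48 (adjusted p = 0.0332). These comparisons share the untreated arrays. NFKBIA was then called lower at 8 h, at -0.51 (limma, adjusted p = 0.018). Of 3584 tested genes these centred comparisons called 195 lower for methanol minus untreated, 233 for LTD4 minus untreated and 96 for time. REL stood at 0.39 for LTD4 minus untreated and NFKB2 at 0.22.

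Likeness of profiles was measured as the root mean square difference of log2 values over the 6 arrays after subtraction of each gene's mean. For TNFRSF9 the nearest of the tested genes were TMEM258 at 0.03, RABAC1 at 0.04 and TIMP1 at 0.05. For FAS they were HADHB at 0.02, KIF14 at 0.04 and IMPA1 at 0.04. Array-wide shifts add to such likeness.

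In the coordinates of the files, whose build the sources do not name, the row of TNFRSF8 lies on chromosome 1 at 12046021-12126851 and that of TNFRSF1B beside it at 12149647-12191872. TNFRSF9 is also on chromosome 1, at 7902494-7923513. TRAF1 and TRAF2 are on chromosome 9, at 122704492-122730868 and 138900769-138943494. FAS lies on chromosome 10 at 90739206-90765522, with a row of ACTA2 overlapping it on the opposite strand. TNFRSF1A lies on chromosome 12 at 6308184-6321522 and TRAF3 on chromosome 14 at 102313566-102442381. CD70 lies on chromosome 19 at 6536850-6542163 and CD40 on chromosome 20 at 44180313-44366257. Each row spans introns and exons, so a value stands for a gene and not for an isoform.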

How the data were processed

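RNA of 6 samples was measured on Affymetrix gene arrays. The deposited values are linear intensity summaries per probeset. Per the submitters' processing notes, RMA and Affymetrix Expression Console were used, while the name of the deposited table carries PLIER. Neither the method behind the values nor any normalization between arrays could be settled. The same 199782 values stood in another deposited table.

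A row was used when its annotation named 1 symbol, with current symbols taken from RefSeq through Entrez identifiers for 19081 of 19479 rows, and the brightest row was kept per gene. Agent and time were fitted as additive terms, with 2 residual degrees of freedom, to log2(intensity + 16) with limma 3.58.1 in R 4.3.3 and adjusted by Benjamini-Hochberg over all genes in the fit, with a threshold of 0.05. The fit was also run on simulated arrays with known differences between times, without array-wide shifts or differences between agents. In the fit to the deposited values all genes share 1 standard error. P-values reflect only the scatter of single arrays, possibly technical. The number of arrays limits precision. Agent by time, and differences between single arrays, have no test.

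All 10 members are named, with list genes called in a fit at the background limit or among the 4 greatest fitted differences of each list, and the 3 genes nearest to the 2 tested members of widest range. CD27, ligand genes below the limit and list genes called without the filter were named after their values were seen. Members and lists were chosen with earlier results of these data known. Protein sequences were not used here.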

Additional observations from a re-analysis of the deposited data

Results flagged for a closer look

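In TNFRSF1B the methanol and the untreated pair of arrays moved in opposite directions with time, by -0.60 in methanol and 0.71 in untreated cells for 8 h minus 1 h, a gap of -1.32 on the log2 scale. The gap was not tested, because each value comes from 1 array. In FAS methanol lay above untreated at 8 h, by 0.41, and below it at 1 h, at -0.39, a gap of 0.80, also not tested. After centring on all genes the FAS values were -0.05 at 8 h and -0.51 at 1 h, and after cyclic loess 0.12 and -0.20. In FAS the 2 differences thus did not both exceed the limit given here under either scaling. In TNFRSF1B both did, at -0.73 in methanol and 0.93 in untreated cells centred, and at -0.88 and 0.89 after cyclic loess. Both were picked out because on the deposited values each difference exceeded 0.31, the SD of a difference of 2 arrays in the fit over all genes.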

How the results depend on the processing

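No paired analysis was possible because the labels carry no replicate numbers and each group has 1 array. Of 624 member differences under an alternative 55 turned sign, 0 of them with a call in either setting, and the sizes of those turned reached 0.38. Some alternatives could not turn a sign, because they leave the estimates unchanged. Among them are the other deposited table, a mean-variance trend, robust fitting and other filters. The 624 thus overstate how many signs were put to a check. Genes called for time, 63 on the deposited values, numbered 165 after quantile normalization, 157 centred, 151 after cyclic loess, 7 with a mean-variance trend, 28 with robust fitting, 133 with a filter on the mean, 320 without a filter and 9 to 187 with 1 array left out. For methanol minus untreated 81 became 377, 398, 369, 52 (trend), 580 (mean filter), 1673 (no filter) and 38 to 343. For LTD4 minus untreated 99 became 437, 482, 465, 39, 438, 921 and 15 to 422. For LTD4 minus methanol 0 became 1 with the mean filter, 3 without a filter and 0 to 2 with 1 array left out. Higher against lower calls after centring were 61 and 96 for time against 34 and 29, 203 and 195 for methanol against 68 and 13, and 249 and 233 for LTD4 minus untreated against 83 and 16.

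Members called for time went to 0 to 1 with 1 array left out, TNFRSF9 with and TNFRSF8 without the filter. For methanol minus untreated 0 of 3 tested members became 1 of 10 members with the mean filter and 1 of 10 without a filter. The call without a filter was TRAF2, which is not among the 3 tested members. Of 10 members without the filter the 1 call became 2 with an offset of 64 (TNFRSF1B and TRAF2), 0 after quantile normalization, 0 centred and 0 after cyclic loess. With 1 array left out the member called, where any was, was TRAF2 or TNFRSF1B, depending on the array. For LTD4 minus untreated the count without the filter was 0 to 1 with 1 array left out. At 1.5-fold the members apart for methanol at 8 h became 1. The causes were not tested. Arrays are 1 per group, and 7 of 10 members lie under the background limit.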

Other observations

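Among pathway genes below the background limit, MAP3K8, the TPL2 kinase upstream of ERK, stood at 1044 (LTD4), 1089 (methanol) and 683 (untreated) at 8 h, against 1187, 789.5 and 728.5 at 1 h. At 1 h its LTD4 value lay above methanol by 0.58 and above untreated by 0.69. MAP3K14, the NIK kinase that TRAF3 restrains, had 589, 668 and 584 at 8 h and 518, 400.5 and 520.4 at 1 h. On these deposited values every array of 8 h lay above every array of 1 h, as did 5.03% of all genes. TRAF3 was in the same order as deposited but lost it after centring on the tested genes. MAP3K8 and MAP3K14 were chosen after their values were seen and had no call in the fits over all genes, as deposited or centred.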
